A study of Mus musculus with 24 samples.

Results

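Endocannabinoids are lipid messengers made on demand by neurons, and 10 genes for their receptors, synthesizing enzymes and degrading enzymes were followed across the RNA-seq of mouse striatum. The genes were Cnr1, Cnr2 and Gpr55 for the receptors, Dagla, Daglb and Napepld for synthesis, and Faah, Mgll, Abhd6 and Abhd12 for breakdown. They were taken by symbol, and all 10 were found among 24340 genes. Levels are FPKM values (fragments mapped to a gene, corrected for transcript length and library size), of which 1 was used for each group. A gene was kept for the background when its mean over the groups was at least 1 FPKM, which held for 13716 genes and for 8 of the 10. Cnr2 and Gpr55 were below that level in the mean and are described separately.

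The study asked whether inhibition of the histone deacetylases HDAC1 and HDAC3 by RGFP109 alters gene expression in a model of Huntington's disease. R6/1 mice carry a transgene of human HTT exon 1 with an expanded CAG repeat, driven by a human HTT promoter fragment. The transgenic animals were hemizygous, and their wild type (WT) littermates served as controls, all on a C57BL/6J background. Only male mice were used. All 4 groups received intraperitoneal injections 5 times weekly for 3 weeks, over 23 days, beginning at 11 to 14 weeks of age, and tissue was taken 18 h after the last one. WT-vehicle (5 mice) and R6/1-vehicle (6 mice) were given dimethyl sulfoxide in saline, whereas WT-RGFP109 (6 mice) and R6/1-RGFP109 (7 mice) were given RGFP109 at 30 mg/kg.

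The 24 libraries entered the deposited tables only as group values. No spread between mice, no test and no p-value is therefore given for any ratio, and the sequencing depth is unknown. Whether a difference exceeded the spread between mice cannot be told from these values. In place of a test, some ratios are set beside the ratios of all 13716 genes in the same comparison. Some are set beside those of the 500 genes nearest to them in level. The remaining ratios, among them those of most single genes outside the receptors and enzymes named above, are given without either. Each group stands in 3 tables, which scaled it differently by 3.18% to 3.92%, and ratios were formed only within a table. The comparison of genotypes under vehicle and the one under RGFP109 share no mice, nor do the comparisons of treatment within each genotype. A genotype comparison and a treatment comparison do share a group. In the GENCODE annotation of the same build, exons of Mgll, Daglb and Gpr55 overlap exons of the genes Gm26588, Rac1 and 4933407L21Rik on the other strand, by up to 90, 2309 and 71 bases, and since counting by strand is not stated, reads there cannot be told apart.

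CB1, the receptor encoded by Cnr1, couples to inhibitory G proteins and sits mainly on axon terminals, where it reduces transmitter release. In the striatum it is abundant on projection neurons and on some interneurons, and its loss is among the known early features of Huntington's disease. Its main ligand in the brain, 2-arachidonoylglycerol (2-AG), is cut from diacylglycerol by diacylglycerol lipase in the postsynaptic neuron, travels backwards across the synapse and is hydrolysed by monoacylglycerol lipase (Mgll) and, to a lesser degree, by Abhd6 and Abhd12. The other ligand, anandamide, is released from membrane lipids by NAPE-PLD (Napepld) among other enzymes and is broken down by fatty acid amide hydrolase (Faah).

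Cnr1 had the largest genotype ratio of the 10 genes. The gene spans chr4:33924632-33948831 in the deposited tables (mm10). Its level was 43.8 FPKM in WT-vehicle and 17.6 FPKM in R6/1-vehicle, and 37.0 FPKM in WT-RGFP109 and 17.5 FPKM in R6/1-RGFP109. Both R6/1 values were thus well below both WT values, at 40.2% of the WT level with vehicle and 47.2% with RGFP109. On the log2 scale, after adding 0.1 FPKM as for all ratios below, R6/1 was lower by a ratio of -1.31 with vehicle and -1.08 with RGFP109. Of the 13716 genes, 2.60% had a ratio at least as large in either direction with vehicle and 3.32% with RGFP109. The middle 95% of the genes nearest to Cnr1 in level ran from -0.96 to 0.34 with vehicle and from -0.77 to 0.35 with RGFP109, so that Cnr1 lay outside both ranges.

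**Figure D1:**
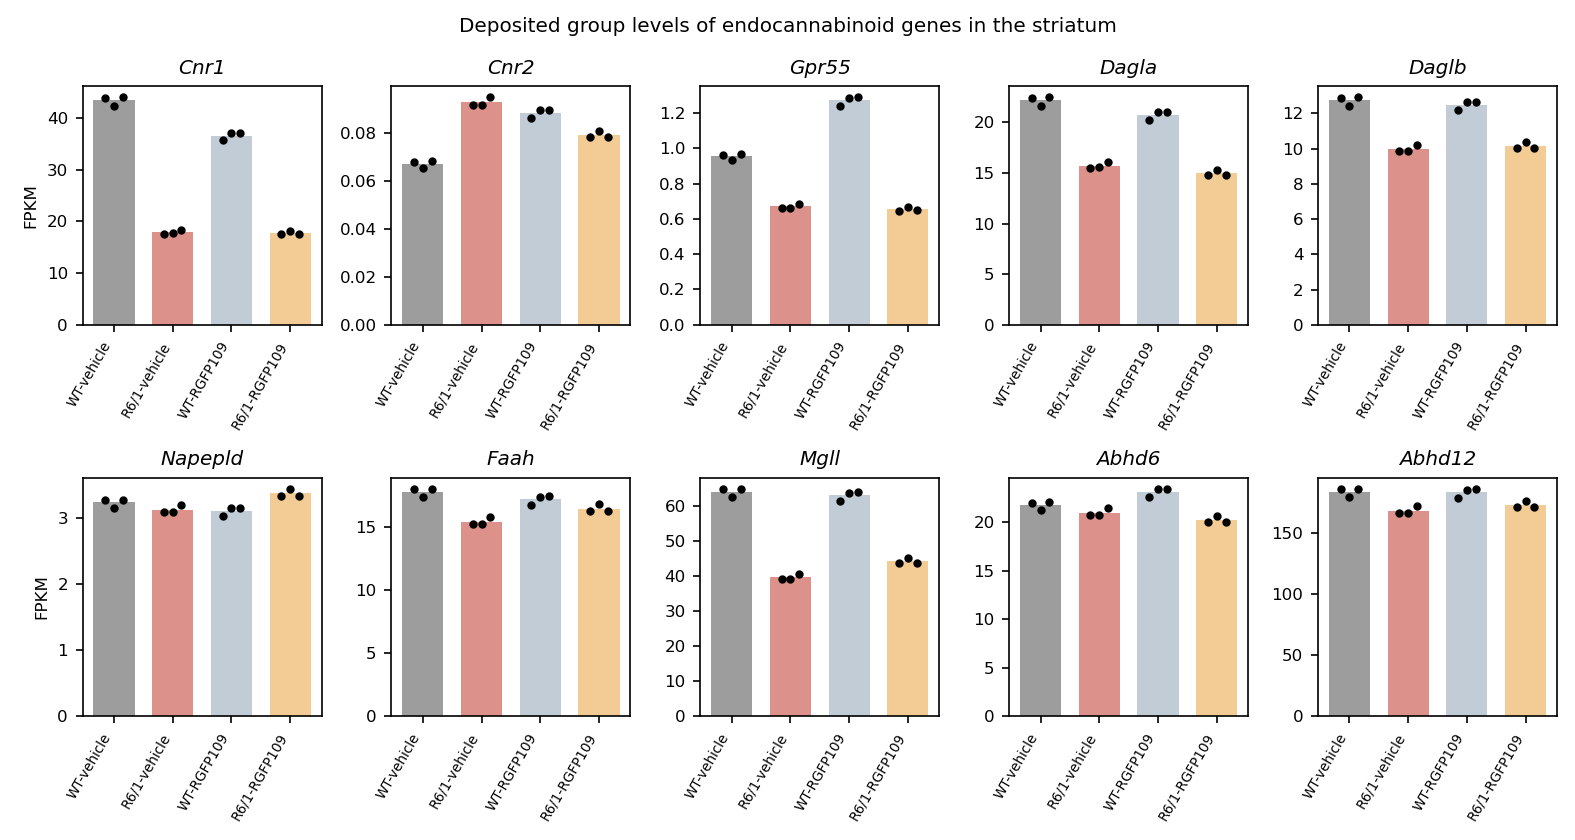
Levels of the 10 genes in the 4 groups, in FPKM on axes that start at 0. Each bar is the mean of the values that the 3 tables give for a group, and the points are those values, which differ by table scaling and are not replicates. Cnr1, Mgll and Dagla were lower in both R6/1 groups than in both WT groups, while Abhd12 ranged only from 166 to 186 FPKM.

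Mgll and Dagla were the other 2 genes past an absolute log2 ratio of 0.5 (about 1.41-fold) in both genotype comparisons. Mgll, the main 2-AG hydrolase of the brain, spans chr6:88724412-88828360 and was at 64.6 FPKM in WT-vehicle and 39.1 FPKM in R6/1-vehicle, a ratio of -0.72. With RGFP109 it was at 63.8 FPKM in WT and 43.8 FPKM in R6/1, a ratio of -0.54. Dagla, the principal neuronal diacylglycerol lipase, spans chr19:10245265-10304877 and was at 22.4 FPKM in WT-vehicle and 15.5 FPKM in R6/1-vehicle, a ratio of -0.53. With RGFP109 it was at 21.0 FPKM in WT and 14.8 FPKM in R6/1, a ratio of -0.50 that lay just past the limit. The genes for the receptor, for its ligand's synthesis and for that ligand's removal were therefore all lower in R6/1 in both pairs of groups. Unlike Cnr1, both lay inside the middle 95% of the genes nearest to them in level, which with vehicle reached down to -1.04 for Mgll and -0.94 for Dagla.

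With vehicle, 3 of the 10 genes (Cnr1, Mgll and Dagla) were past this limit in the lower direction and 0 in the higher. Among all 13716 genes, 10% were past it in the lower direction and 3.81% in the higher, 13.8% in all. With RGFP109, the same 3 and Gpr55 were past it in the lower direction, so 4 of the 10, and 0 in the higher. Among all genes, 8.52% were past it in the lower direction and 3.39% in the higher, 11.9% in all. This background leaves out genes as low as Gpr55 and Cnr2, and of the 8 genes it includes 3 were past the limit in each comparison. The same 3 genes were lower past it in both comparisons, as were 6.31% of all genes, and 0 of the 10 were higher in both, as were 1.63%. With 10 genes, these counts rest on few members. R6/1 values were below WT in both comparisons for 8 of the 10, and for 7 of the 8 genes kept for the background, against 40.4% of all genes, and the median ratio of the 8 kept genes was -0.31 with vehicle and -0.28 with RGFP109. The median of all genes was -0.0040 and 0.0095, respectively.

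**Figure D2:**
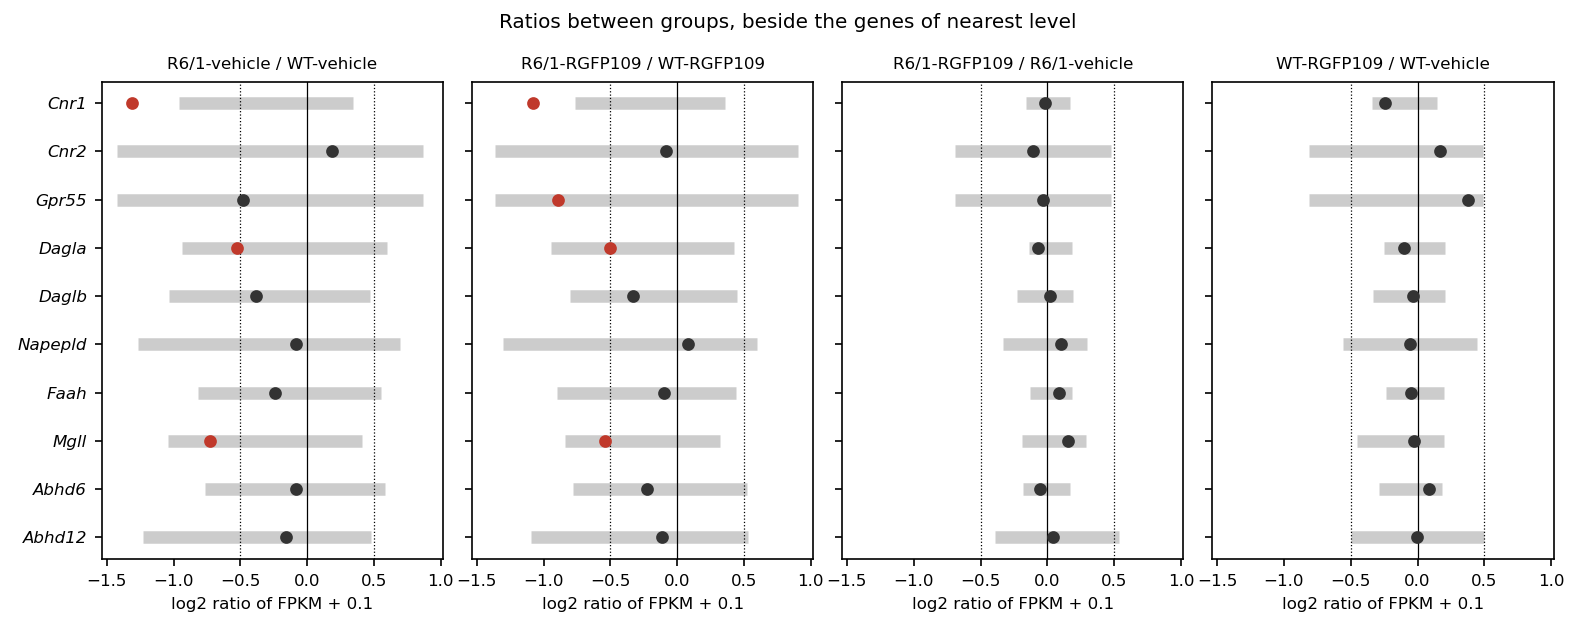
Log2 ratio of FPKM + 0.1 for each gene (rows) in the 2 genotype comparisons and the 2 treatment comparisons (panels). Points are the genes, in red where past the dotted lines at -0.5 and 0.5, and grey bars show the middle 95% of the 500 genes nearest in level. Cnr1 lies left of its bar in both genotype panels (-1.31 and -1.08), and every gene lies between the dotted lines in both treatment panels.

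The 2 genes of lowest level were the other receptor genes. Cnr2 encodes CB2, a receptor known mainly from immune cells, and was at 0.0678 FPKM in WT-vehicle and 0.0914 in R6/1-vehicle, and with RGFP109 at 0.0895 in WT and 0.0783 in R6/1. These values lie close to or below the 0.1 FPKM added before the logarithm, and no order among the groups was read from them. Gpr55, a receptor for lysophosphatidylinositol that also responds to some cannabinoids, was at 0.964 FPKM in WT-vehicle and 0.662 in R6/1-vehicle, a ratio of -0.48. With RGFP109 it was at 1.29 FPKM in WT and 0.648 in R6/1, a ratio of -0.89. Its R6/1 values were nearly equal, so that the wider ratio came from the higher value of WT-RGFP109. At such levels the ratios of other genes also spread widely, with the middle 95% of the nearest genes from -1.42 to 0.86 with vehicle and from -1.37 to 0.90 with RGFP109, and both Gpr55 ratios lay inside.

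Among the synthesizing enzymes, Daglb, the second diacylglycerol lipase, was at 12.9 FPKM in WT-vehicle and 9.86 in R6/1-vehicle, a ratio of -0.38. With RGFP109 it was at 12.7 in WT and 10.04 in R6/1, a ratio of -0.33. Daglb was thus lower in R6/1 in both comparisons, by less than Dagla. Dagla made up 63.5% of the summed FPKM of both lipases in WT-vehicle and 61.1% in R6/1-vehicle, and with RGFP109 62.4% in WT and 59.6% in R6/1. Napepld was at 3.28 FPKM in WT-vehicle and 3.09 in R6/1-vehicle, and at 3.16 in WT-RGFP109 and 3.34 in R6/1-RGFP109. Its ratios of -0.081 and 0.080 pointed in opposite directions, and over 70% of all genes had larger ones (75.3% and 73.1% at least as large).

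Of the degrading enzymes other than Mgll, none was past the limit. Faah was at 18.0 FPKM in WT-vehicle and 15.3 in R6/1-vehicle (ratio -0.24), and at 17.5 in WT-RGFP109 and 16.3 in R6/1-RGFP109 (ratio -0.099). Abhd6, a membrane hydrolase of 2-AG at postsynaptic sites, was at 22.0 and 20.7 FPKM with vehicle (ratio -0.085) and at 23.5 and 20.1 FPKM with RGFP109 (ratio -0.23), for WT and R6/1 respectively. Abhd12, which also hydrolyses lysophosphatidylserine, was at 185 and 166 FPKM with vehicle (ratio -0.16) and at 186 and 171 FPKM with RGFP109 (ratio -0.12). All 3 were somewhat lower in R6/1 in both comparisons, and for each of them at least 36.4% of all genes had a ratio as large.

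Since FPKM is corrected for length, levels may be set side by side between genes. Abhd12 had the highest level in every group and exceeded 97.46% of the genes kept for the background in its mean level. Mgll followed in every group. The third place was held by Cnr1 in both WT groups and by Abhd6 in both R6/1 groups, where Cnr1 came next. In WT-vehicle Dagla and Abhd6 lay close together at 22.4 and 22.0 FPKM, as did Dagla and Faah in R6/1-vehicle at 15.5 and 15.3 FPKM, and their order there cannot be given beyond the unknown spread. Daglb, Napepld, Gpr55 and Cnr2 took the last 4 places in that order in all groups. The ratio of the Cnr1 level to that of Dagla was 1.96 in WT-vehicle and 1.76 in WT-RGFP109, but 1.14 in R6/1-vehicle and 1.18 in R6/1-RGFP109.

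Because Mgll had the larger genotype ratio, its share among the transcripts of the 2-AG hydrolases also differed. Of the summed FPKM of Mgll, Abhd6 and Abhd12, Mgll made up 23.7% in WT-vehicle and 17.3% in R6/1-vehicle. With RGFP109 its share was 23.4% in WT and 18.6% in R6/1. Abhd12 made up most of the sum, with 68.2% in WT-vehicle and 73.5% in R6/1-vehicle, and 68.0% in WT and 72.8% in R6/1 with RGFP109. These are shares of transcript and not of enzyme activity.

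The promoter sequences of Cnr1 and Mgll, the 2 genes with the largest genotype ratios among those kept for the background, are shown because an inhibitor of histone deacetylases acts on chromatin. Each is the 250 bases before a start in RefSeq on GRCm38.p6 (mm10), 5′ to 3′ on the plus strand. GC boxes (GGGCGG, or CCGCCC on the other strand) are in capitals. Windows that overlapped exons of the gene itself were passed over, and the nearest remaining start was used. Cnr1 lies on chromosome 4 and its window is chr4:33924014-33924263. That window precedes a start at 33924264, which lies upstream of the position 33924632 where the gene begins in the deposited tables. Mgll lies on chromosome 6 and its window is chr6:88724162-88724411.
Cnr1: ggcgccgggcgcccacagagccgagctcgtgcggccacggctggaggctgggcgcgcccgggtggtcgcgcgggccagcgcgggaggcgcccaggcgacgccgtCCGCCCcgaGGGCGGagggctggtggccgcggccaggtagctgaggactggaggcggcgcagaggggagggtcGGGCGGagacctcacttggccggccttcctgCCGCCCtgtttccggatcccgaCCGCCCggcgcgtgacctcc
Mgll: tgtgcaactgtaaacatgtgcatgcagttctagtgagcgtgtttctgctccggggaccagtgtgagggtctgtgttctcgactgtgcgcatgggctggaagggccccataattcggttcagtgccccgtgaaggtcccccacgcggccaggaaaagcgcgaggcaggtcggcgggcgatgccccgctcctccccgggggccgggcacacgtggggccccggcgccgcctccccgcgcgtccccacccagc
The Cnr1 window held 36 CpG dinucleotides, a count that 2.58% of 32851 such windows reached, and its bases were 79.2% G or C. It held 5 GC boxes, a motif found at least once in 32.7% of all windows. The Mgll window held 23 CpG, a count that 13.3% of the windows reached. It was 68% G or C and held 0 GC boxes. Windows could be read for Cnr2, Gpr55, Daglb, Napepld and Abhd6 as well, and these also held 0. Neither the cyclic AMP response element TGACGTCA nor its core TGACG nor TATAAA, each searched on both strands, had a match in any of these 7 windows, while 1.55%, 17.8% and 12.4% of all windows held them, in that order. The core TGACG lies within TGACGTCA. Chromatin at these windows was not analysed here, and the letters are given as a description.

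Between RGFP109 and vehicle, the 10 genes were within the limit of 0.5 in both genotypes. In R6/1 mice, 0 of 10 were past it, as were 2.97% of all genes (1.48% lower and 1.49% higher). In WT mice it was also 0 of 10, and 3.72% of all genes (2.06% lower and 1.66% higher). The ratios of R6/1-RGFP109 to R6/1-vehicle ran from -0.11 for Cnr2 to 0.16 for Mgll. Mgll was at 40.4 FPKM in R6/1-vehicle and 45.1 FPKM in R6/1-RGFP109 in the table of this pair, and 13.7% of all genes had a ratio as large. Cnr1 was at 18.3 and 18.0 FPKM, a ratio of -0.018, and Dagla at 16.1 and 15.3 FPKM, a ratio of -0.074. Napepld and Faah were slightly higher with RGFP109, at ratios of 0.10 and 0.087. All 10 lay inside the middle 95% of the genes nearest in level, and whether any of these small differences exceeded the spread between mice is unknown.

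In WT mice the ratios of WT-RGFP109 to WT-vehicle ran from -0.25 for Cnr1 to 0.38 for Gpr55. Cnr1 was at 42.3 FPKM in WT-vehicle and 35.6 FPKM in WT-RGFP109, and 10.3% of all genes had a ratio as large. Gpr55 was at 0.931 and 1.24 FPKM. Both stayed inside the middle 95% of the genes nearest in level, from -0.34 to 0.14 for Cnr1 and from -0.81 to 0.49 for Gpr55. The other 8 genes had ratios between -0.097 (Dagla) and 0.17 (Cnr2). Mgll was at 62.4 and 61.4 FPKM, a ratio of -0.024.

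The treatment ratio in R6/1 minus that in WT was 0.23 for Cnr1, and 16.7% of all genes had a difference as large. The narrower Cnr1 gap between genotypes with RGFP109 thus went with the lower WT-RGFP109 value, as its R6/1 values were nearly equal. For Mgll the difference was 0.18, with 23.1% of all genes as large, and here the R6/1 value was the one that was higher with RGFP109. For Gpr55 it was -0.41, and for Dagla 0.024. None of these differences could be tested.

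R6/1-RGFP109 was also set directly against WT-vehicle, a group that it shares with comparisons above. Cnr1 was at 17.5 FPKM against 43.9, a ratio of -1.33. Mgll was at 43.7 against 64.8 FPKM (ratio -0.57) and Dagla at 14.8 against 22.5 FPKM (ratio -0.60). R6/1 mice given RGFP109 were thus below WT mice given vehicle for all 3 genes. Gpr55 was at 0.647 against 0.966 FPKM (ratio -0.51), and Napepld at 3.34 against 3.28 FPKM (ratio 0.024).

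Around these 10 genes, 42 further genes of the pathway were considered in 7 lists, and 35 of them were kept for the background. With vehicle 5 of the 35 were past the limit in the lower direction and 1 in the higher, and with RGFP109 6 and 1. As shares of genes, these stand against the 10% and 3.81%, and the 8.52% and 3.39%, given above. The median ratio of the 35 was -0.22 with vehicle and -0.19 with RGFP109, and 23 of them were below WT in both comparisons, beside 40.4% of all genes.

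Most of the pathway genes that were lower in both comparisons belonged to the receptors and proteins that drive 2-AG synthesis. Of these 9 genes, 3 were lower past the limit in both, beside 6.31% of all genes. Homer1, a scaffold that links group I metabotropic glutamate receptors to their effectors, was at 28.0 FPKM in WT-vehicle and 17.7 in R6/1-vehicle (ratio -0.66), and at 30.2 and 17.3 FPKM with RGFP109 (ratio -0.80). Camk2a, the kinase subunit known to phosphorylate and inhibit diacylglycerol lipase alpha, was at 617 and 367 FPKM with vehicle (ratio -0.75) and at 599 and 373 FPKM with RGFP109 (ratio -0.68). Chrm3, a muscarinic receptor coupled to phospholipase C, was at 7.77 and 5.41 FPKM (ratio -0.51) and at 7.83 and 5.29 FPKM (ratio -0.56). The list therefore mixes an inhibitor of the enzyme with proteins that act before it.

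Among 4 phospholipase C beta genes, whose enzymes supply diacylglycerol, 1 was past the limit in the lower direction in each comparison. Among all genes this held for 10% with vehicle and 8.52% with RGFP109. The gene was not the same in both comparisons. Plcb3 had ratios of -0.50 and -0.44, and Plcb1 of -0.49 and -0.66. Of these 4 ratios, the one of Plcb1 with RGFP109 was the furthest past the limit, and the other 3 lay close to it.

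In the list for anandamide and its relatives, 1 of 8 genes kept for the background was past the limit, in both comparisons. Among all genes, 13.8% were past it in either direction with vehicle and 11.9% with RGFP109. In both comparisons, 6.31% of all genes were lower past it. A count of 1 in 8 therefore does not set this list apart. The gene was Ptgs2 (cyclooxygenase-2, which also oxidizes endocannabinoids). With vehicle it was at 1.50 FPKM in WT and 0.744 in R6/1 (ratio -0.92). With RGFP109 it was at 1.53 FPKM in WT and 0.858 in R6/1 (ratio -0.76). Of the 500 genes nearest to Ptgs2 in level, 9.8% had a ratio as large with vehicle and 11.8% with RGFP109. Pla2g4e, an N-acyltransferase that makes the precursor of anandamide, had the largest treatment ratio of the 35 genes in R6/1 mice, at 2.33 FPKM with vehicle and 2.83 with RGFP109 (ratio 0.27), still within the limit.

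The partners of CB1 differed in direction. Gprasp1, which sorts several G protein-coupled receptors to lysosomes, was the only one of the 35 genes higher past the limit in both comparisons, at 127 FPKM in WT-vehicle and 211 in R6/1-vehicle (ratio 0.73), and at 137 and 200 FPKM with RGFP109 (ratio 0.55). The other 4 partners had ratios between -0.22 and 0.22 with vehicle. None of the 4 inhibitory G protein genes was past the limit in either comparison, beside 13.8% of all genes with vehicle and 11.9% with RGFP109. The summed levels of these 4 genes were 418 FPKM in WT-vehicle and 386 in R6/1-vehicle. Gnao1 made up most of that sum, at 265.5 and 224.1 FPKM, and had ratios of -0.24 with vehicle and -0.22 with RGFP109. Gnai1, Gnai2 and Gnai3 were instead slightly higher in R6/1 in both comparisons. Their ratios were 0.042, 0.092 and 0.033 with vehicle, and 0.21, 0.22 and 0.16 with RGFP109. Of 5 further receptors, only Ppara reached a mean of 1 FPKM.

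Among the 4 lipid carriers, Fabp7, a fatty acid binding protein of astrocytes and progenitors that can carry anandamide, stood apart in 1 group. It was at 74.4 FPKM in WT-RGFP109 and 28.9 in R6/1-RGFP109 (ratio -1.36), but at 40.9 and 34.1 FPKM in the vehicle groups (ratio -0.26). In the table of the WT groups it was at 39.5 FPKM with vehicle and 71.8 with RGFP109 (ratio 0.86). It was the 1 gene of the 35 past the limit for treatment in either genotype. Among all genes, 2.97% were past it in R6/1 and 3.72% in WT. Without values per mouse it cannot be told whether 1 library carried the Fabp7 value of WT-RGFP109.

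**Figure D3:**
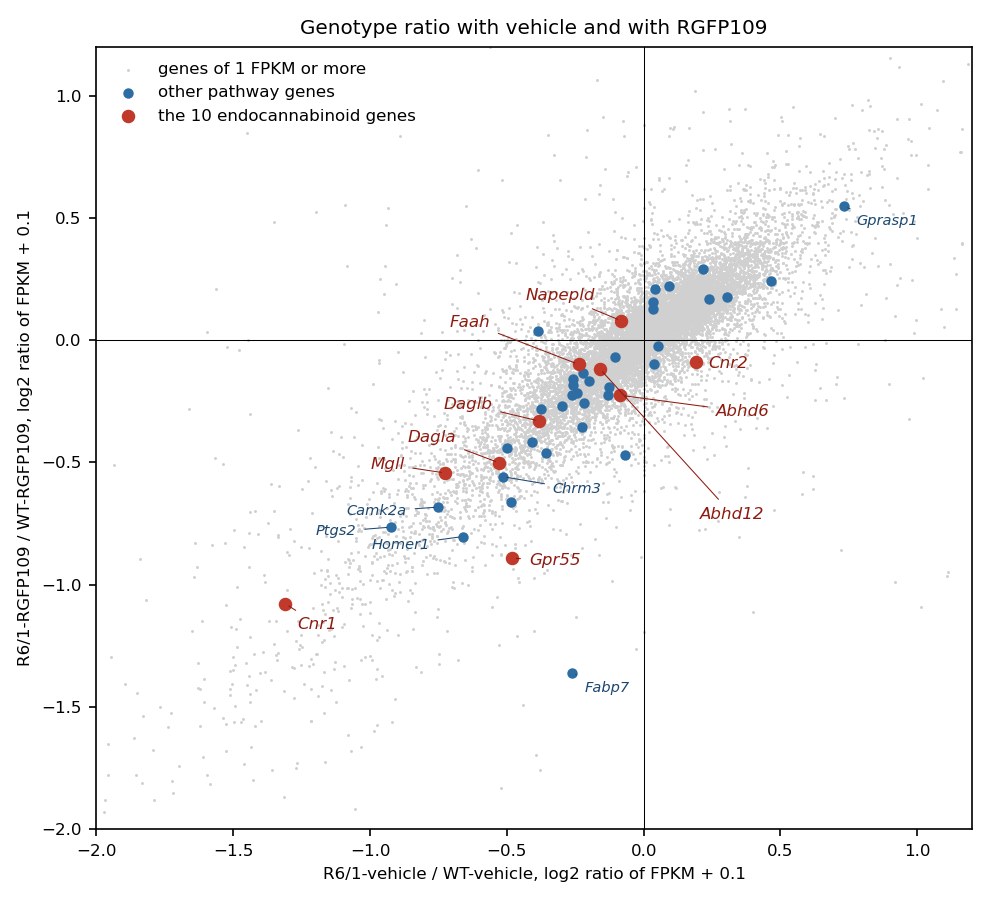
Log2 ratio of R6/1 to WT with vehicle (horizontal axis) and with RGFP109 (vertical axis), both of FPKM + 0.1. Red points are the 10 genes, blue points the 35 further pathway genes, and grey points the 13716 genes kept for the background, of which 381 lie outside the axes. Cnr1, at -1.31 and -1.08, lies near the diagonal beyond all blue points in the vehicle comparison, and Fabp7 lies below the diagonal at -0.26 and -1.36.

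Over the levels of the 4 groups, each gene centred on its own mean on the log2 scale, the genes most like Cnr1 among those kept for the background were Ecel1, Cntnap3 and Ido1, at distances of 0.062, 0.091 and 0.10. Ecel1 was at 24.8 FPKM in WT and 10.3 in R6/1 with vehicle, and at 22.1 and 9.86 FPKM with RGFP109. Within a distance of 0.2 lay 49 genes for Cnr1, 456 for Mgll and 893 for Dagla. The Cnr1 pattern was thus the least common of the 3, which goes with its larger genotype ratio and is not a separate result. Nearest to Mgll were Htra1 (0.0090), Abcc8 and Lrrc75a, and nearest to Dagla were Krt10 (0.011), Fam160b2 and Lgi4. With 4 values a gene, such likeness is a description.

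The tissue was checked by marker lists, and all of the listed marker genes found in the tables had a mean of at least 1 FPKM. Markers of striatal projection neurons were abundant, with a summed level of 3497 FPKM in WT-vehicle, as the label of striatum implies. In bulk tissue, fewer cells of a type and less RNA per cell cannot be told apart. The sum for projection neurons was 1387 FPKM in R6/1-vehicle, and with RGFP109 it was 3388 in WT and 1243 in R6/1. Of the 13 projection neuron genes, 9 were lower past the limit with vehicle and 10 with RGFP109, with median ratios of -1.25 and -1.33. The projection neuron ratios ranged with vehicle from -2.01 for Penk to -0.11 for Tac1. Of 10 interneuron genes, 9 and 10 were lower past the limit, with median ratios of -0.98 and -0.97. The Cnr1 ratios were -1.31 and -1.08. They lay nearer to the projection neuron median with vehicle and nearer to the interneuron median with RGFP109. The part of these cell types in the ratios of Cnr1, Mgll and Dagla was not tested.

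Lists for other cells and neighbouring tissue also moved with genotype. The choroid plexus list had medians of -0.82 with vehicle (5 of 6 genes lower past the limit) and -0.77 with RGFP109 (4 of 6). The median for oligodendrocytes was -0.81 with vehicle, with 6 of 8 genes past the limit, and -0.25 with RGFP109, with 0 of 8, and their summed levels were 5001, 2812, 3918 and 3158 FPKM in WT and R6/1 with vehicle and in WT and R6/1 with RGFP109. The neocortex list had a median of -0.68 with vehicle (8 of 10 genes past the limit) and -0.14 with RGFP109 (0 of 10), and summed to 374, 211, 346 and 264 FPKM in the same order. The oligodendrocyte and neocortex lists were thus closer between genotypes with RGFP109, as the Mgll ratio also was, at -0.72 and -0.54. This was not particular to Mgll. The ratios of Cnr1 (-1.31 and -1.08), Faah (-0.24 and -0.099), Dagla, Daglb and Abhd12 were also closer to 0 with RGFP109. Those of Abhd6 (-0.085 and -0.23) and Gpr55 (-0.48 and -0.89) were further from it. Astrocyte genes had medians of -0.37 and -0.40, microglial genes of -0.23 and -0.23, and genes of endothelial cells and pericytes of -0.24 and -0.22. The part of these lists in the ratios of the 10 genes was not tested.

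Beside the treatment comparisons, the choroid plexus list differed most. All 6 of its genes were lower past the limit with RGFP109 in each genotype, with medians of -1.60 in R6/1 and -1.64 in WT, and its sum was 44.6 FPKM in WT-vehicle and 26.3 in R6/1-vehicle, and 16.1 in WT and 10.2 in R6/1 with RGFP109. The 10 endocannabinoid genes were within 0.38 of 0 in these same comparisons. In R6/1 mice the neocortex list had a median treatment ratio of 0.43 and the oligodendrocyte list of 0.18, beside 0.16 for Mgll, while in WT mice they were at -0.19 and -0.37, beside -0.024 for Mgll. For projection neurons the medians were -0.13 in R6/1 and -0.072 in WT, beside -0.018 and -0.25 for Cnr1. Their part in these values was not tested.

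**Figure D4:**
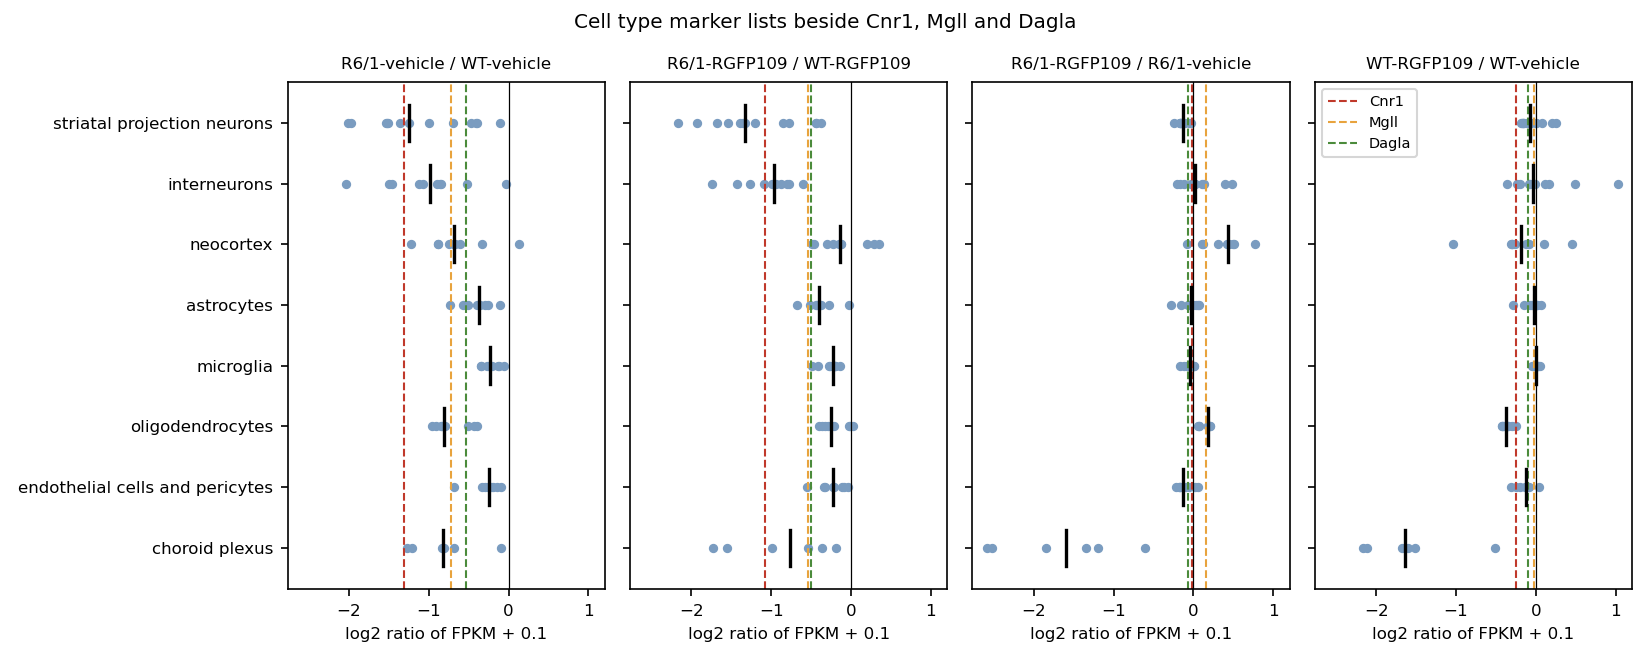
Log2 ratio of FPKM + 0.1 for the genes of 8 marker lists (rows, blue points, black bars at the medians) in the 4 comparisons (panels), with dashed lines at the ratios of Cnr1, Mgll and Dagla. In both genotype panels the Cnr1 line (-1.31 and -1.08) falls among the projection neuron and interneuron genes. With RGFP109 it also falls within the range of the choroid plexus genes, from -1.73 to -0.18. In both treatment panels the choroid plexus genes lie left of all 3 lines, at medians of -1.60 and -1.64.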

How the data were processed

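The authors aligned single-end reads of striatal mRNA (1 hemisphere, TruSeq RNA kit) with STAR 2.5.0b to RefSeq transcripts of mm10, computed FPKM values with Cufflinks 2.2.1 and ran Cuffdiff on each pair of the 4 groups. The 6 deposited tables hold 1 FPKM value per group, pooled over its libraries. Their columns of fold changes, test statistics, p-values and q-values are the authors' own comparisons and were not used. Counting by strand is not stated, and depth is unknown, so no interval or detection limit is given.

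Ratios were log2 of (FPKM + 0.1) within a table, with 0.5 as the limit for a difference, after the study's own fold. The study also required a q-value below 0.1, which was not applied here. Genes past the limit are therefore not the study's calls. The background was 13716 genes with a mean of at least 1 FPKM, after scaling the 3 tables of each group by their median ratio. Calculations used Python 3.11.15, numpy 2.4.6 and pandas 2.3.3 and were tested on simulated data. No test was made, since the values used hold no replicates. Genes named beyond the 10 were pathway genes past the limit in the same direction in both genotype comparisons, those with the largest treatment ratio, the 3 nearest patterns and the extremes of lists. Plcb1 and Plcb3 were added after their values were seen. The 10 genes and all lists were chosen with earlier results of these data known. Promoters came from RefSeq (GRCm38.p6), in which 8 of the 10 genes were matched. Dagla and Abhd12 had no entry, and the window of Faah overlapped its own exon and was left out. Alternatives were pseudocounts of 0.01 and 1 FPKM, limits of 0.25 and 1, filters of 0.1, 5 and none, centring on the median of all genes, and levels scaled over the 3 tables.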

Additional observations from a re-analysis of the deposited data

How the results depend on the processing

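Of 160 ratios of the 10 genes under the alternatives, 151 moved by less than 0.1 and stayed on the same side of the limit, 9 did not, and 0 changed sign past the limit. Changes of sign were counted only for ratios past the limit. A pseudocount cannot change the sign of a ratio, so the count of 0 says little. Those 9 belonged to Cnr2, Gpr55 and Dagla. With a pseudocount of 1 FPKM, Dagla with RGFP109 was at -0.48 and Gpr55 at -0.47, so that 2 of the 10 genes remained past the limit in that comparison, and with 0.01 FPKM Gpr55 with vehicle was at -0.53. With a limit of 0.25, 5 genes were past it with vehicle and 1 for RGFP109 in WT, and with a limit of 1 only Cnr1 was past it, so 1 in each genotype comparison. The share of all genes past the limit was, at 0.25 and at 1, 37.4% and 4.07% for genotype with vehicle, 32.1% and 3.59% with RGFP109, 6.62% and 1.76% for RGFP109 in R6/1, and 10.1% and 2.15% in WT. With no filter on level it was 4.75% for RGFP109 in R6/1 and 6.74% in WT, and with a filter of 0.1 FPKM 6.06% in WT. No paired analysis was possible because the values used hold 1 value per group, and for the same reason no mouse could be left out in turn and no difference could be set against the spread between mice.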

Other observations

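Abhd6 and Abhd12 belong to the alpha/beta hydrolase domain genes, of which 21 symbols were found by name and 18 had a mean of at least 1 FPKM. The median ratio of the 18 between R6/1 and WT was -0.13 with vehicle and -0.16 with RGFP109. Beside 13.8% of all genes with vehicle and 11.9% with RGFP109, 1 of the 18 was past the limit in each comparison. This was Abhd11os, an antisense RNA beside Abhd11 and not a hydrolase, at 37.0 FPKM in WT-vehicle and 1.58 in R6/1-vehicle (log2 ratio -4.46) and at 28.7 and 2.11 FPKM with RGFP109 (log2 ratio -3.70). Its neighbour Abhd11 was at 33.6 and 27.8 FPKM with vehicle (log2 ratio -0.27). Overlap between the exons of Abhd11os and Abhd11 was not checked, and counting by strand is not stated. Whether the 2 genes shared reads is therefore unknown. The highest ratio with vehicle was that of Abhd14b, at 0.29, and it was at 0.31 with RGFP109. With RGFP109 against vehicle, 0 of the 18 were past the limit in either genotype, beside 2.97% of all genes in R6/1 and 3.72% in WT.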
